A study of Arabidopsis thaliana with 15 samples.

Results

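Of the 32678 named genes measured in Arabidopsis thaliana seedlings, 65 stayed level for 2 h in solvent and were then higher at 4 h. They were chosen from the solvent libraries alone, on group means of log2(RPKM + 1), where RPKM is reads per kilobase of gene per 1e6 reads assigned to genes. The 2 h mean had to lie between -0.15 and 0.15 of the 0 h mean, and the 4 h mean at least 0.6 above the 2 h mean. All 3 values at 4 h also had to be above all values at 0 h and 2 h. These solvent values are therefore a description of how the genes were picked and carry no test. The question was what the 65 genes encode, how abundant their transcripts were, and whether they behaved alike in seedlings given GR24 4DO, whose libraries at 4 h and 2 h played no part in the choice.

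RNA was sequenced from whole seedlings of the Col ecotype, wild type, 10 days old, grown on solid medium in long days. All seedlings were moved to liquid medium for 2 h of adjustment and then received 5 µM GR24 4DO, a synthetic strigolactone with the stereochemistry of 4-deoxyorobanchol, or the solvent alone. The libraries formed 5 groups of 3: GR24 4DO at 4 h and at 2 h, and solvent at 0 h, 2 h and 4 h. Library depth ran from 24.4 to 37.4 M reads (1 M is 1e6). Whether replicates are separate cultures is not labelled, and p-values therefore reflect only the scatter of these libraries, which may be technical. Chi-square per degree of freedom between replicates, near 1 if only counting error separates them, was 3.72 to 18.6 in most pairs. Much more alike were solvent 4 h replicates 1 and 3 (1.12) and solvent 2 h replicates 2 and 3 (1.71). So were replicates 1 and 2 with GR24 4DO at 4 h (1.84). In these groups the libraries may understate the scatter between cultures, and a shared origin of such pairs was not tested. In whole seedlings, fewer cells of a type and less RNA per cell cannot be told apart.

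Strigolactones are plant hormones that restrain shoot branching and act on root and root hair growth. They are perceived by a receptor that marks repressor proteins for destruction. Root hairs grow at their tips, where the wall is built from extensins, proline-rich proteins and arabinogalactan proteins and is loosened and crosslinked by enzymes such as xyloglucan endotransglucosylases and peroxidases. Chloroplast proteins such as the small subunit of Rubisco and ferredoxin are mostly encoded in the nucleus, and their transcripts follow light and the time of day.

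Wall proteins were the largest recognisable kind among the 65 genes. Genes annotated as cell wall enzymes and proteins made up 9 members, or 13.8% of them, beside 2.06% of the 19155 genes tested. Many wall genes were chosen only with solvent 2 h replicate 1 included. Without that library, 3 of the 18 wall genes grouped below and 27 of the 65 genes still met the rule. Class III peroxidases, which can crosslink wall polymers, gave 2 members (3.08%, beside 0.350%), and transporters gave 4 (6.15%, beside 2.64%). None of the members was annotated as a ribosomal protein, histone, cytochrome P450, glutathione S-transferase or heat shock protein, or as a WRKY, MYB, NAC, AP2/ERF or bZIP factor. Each of these kinds made up only 0.224% to 1.64% of genes tested, so its absence among 65 genes is unremarkable. Regulators included the basic helix-loop-helix factor bHLH093 (1.54% of members, beside 0.486% of genes tested) and the homeobox gene HB27 (1.54%, beside 0.804%). The TCP factor AT1G35560 was another, and the share of its family was not counted. A further 12 members, in none of the kinds or groups described here, were annotated only as uncharacterized or hypothetical. Of the 65 genes, 61 coded for protein, and the others were 2 small nucleolar RNAs, MIR159a and EXT11, which the reference lists as a pseudogene.

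By product or symbol, 18 members were grouped as cell wall and root hair wall genes and 6 as chloroplast and redox genes, after their values had been seen. The first group holds the proline-rich protein genes PRP1 and PRP3, the pseudogene with the extensin symbol EXT11, the leucine-rich repeat extensin genes LRX1 and LRX2, the arabinogalactan protein genes AGP2, AGP3 and AGP27, and XTH12. Its other 9 members encode an inhibitor-like protein of invertases and pectin methylesterases (AT1G62770), peroxidases (AT3G28200, AT1G34510), dirigent-like proteins (AT3G13650, AT5G42500), carbohydrate-binding X8 proteins (AT4G13600, AT1G13830), a glycine-rich protein (AT1G55990) and a proteophosphoglycan-like protein (AT3G54680). The second holds FD1, RBCS1B, AT5G62140, AT1G14345, AT1G06830 and AT2G27402. The remaining 41 members belong to neither.

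The sequence upstream of 3 wall genes is shown because it holds a motif that was rare elsewhere. The root hair element, a motif known from promoters of genes expressed in root hairs, was searched on both strands in the 250 bases before each gene start. It was present in 3 members (4.62%), all of them root wall genes, and in 143 of 19137 genes tested (0.747%). This motif was added to the search after the members had been seen, so these shares are a description only. A match describes these letters and is not a shown binding site. The windows come from the RefSeq assembly TAIR10.1, lie on the plus strand and overlap no annotated gene: chr3:23182472-23182721 before PRP3, chr1:20504651-20504900 before PRP1 and chr1:4069742-4069991 before LRX1. The match, in capitals, starts 167 bases before the start of PRP3, 129 before PRP1 and 93 before LRX1, and reads as the element on the minus strand in each.
PRP3: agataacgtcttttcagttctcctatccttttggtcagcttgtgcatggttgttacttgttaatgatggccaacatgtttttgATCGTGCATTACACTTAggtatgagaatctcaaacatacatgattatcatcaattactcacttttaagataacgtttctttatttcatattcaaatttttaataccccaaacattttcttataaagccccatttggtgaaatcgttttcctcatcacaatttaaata
PRP1: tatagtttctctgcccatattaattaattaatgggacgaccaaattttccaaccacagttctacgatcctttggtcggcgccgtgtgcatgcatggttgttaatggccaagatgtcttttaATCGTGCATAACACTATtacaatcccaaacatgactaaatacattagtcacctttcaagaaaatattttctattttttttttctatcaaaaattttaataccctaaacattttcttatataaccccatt
LRX1: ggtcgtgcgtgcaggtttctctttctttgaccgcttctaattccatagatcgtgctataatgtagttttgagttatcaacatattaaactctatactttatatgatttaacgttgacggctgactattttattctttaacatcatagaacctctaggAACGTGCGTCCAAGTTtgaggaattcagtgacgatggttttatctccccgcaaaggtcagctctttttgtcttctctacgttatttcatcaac
Read in the direction of the element, the 3 matches are as follows.
PRP3: TAAGTGTAATGCACGAT
PRP1: ATAGTGTTATGCACGAT
LRX1: AACTTGGACGCACGTT
Among the other motifs searched, the G-box (CACGTG) was in 7.69% of members and 7.2% of genes tested, and CACATG, an element of dawn-phased genes, in 13.8% and 11.1%. The evening element (AAAATATCT) was in 0 members and in 2.5% of genes tested, and the auxin response element (TGTCTC) in 3.08% and 10.6%.

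Transcript levels of the 65 genes spanned the usual range. The median member had a mean of 17.2 RPKM with GR24 4DO at 4 h and 11.1 RPKM at 2 h. In solvent the medians were 9.41 RPKM at 0 h, 9.95 RPKM at 2 h and 15.6 RPKM at 4 h. The genes tested had medians of 9.67 to 10.6 RPKM in the same groups. RBCS1B was the most abundant member, and AT4G02555, a small nucleolar RNA, MIR159a and the marneral synthase gene MRN1 were among the lowest. AT4G02555 rested on 2 to 8 reads per library with GR24 4DO and 0 to 8 in solvent, so its solvent difference of 1.42, the largest of all, is a matter of single reads. MIR159a and MRN1 did not reach 1 RPKM in 3 libraries, and the other 63 members were tested.

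Most solvent differences lay close to the limit that chose them. The median difference between 4 h and 2 h was 0.68, 36 members were under 0.7, and 5 reached 1 or more. Just inside the limit stood AT1G62770 and AT5G42500 (0.606 each) and AT3G54680 (0.611). Just outside stood AT3G29644 (0.599), AT4G00670 (0.598) and the arabinogalactan protein gene AGP20 (0.595). No gap separated the chosen genes from their neighbours.

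**Figure D1:**
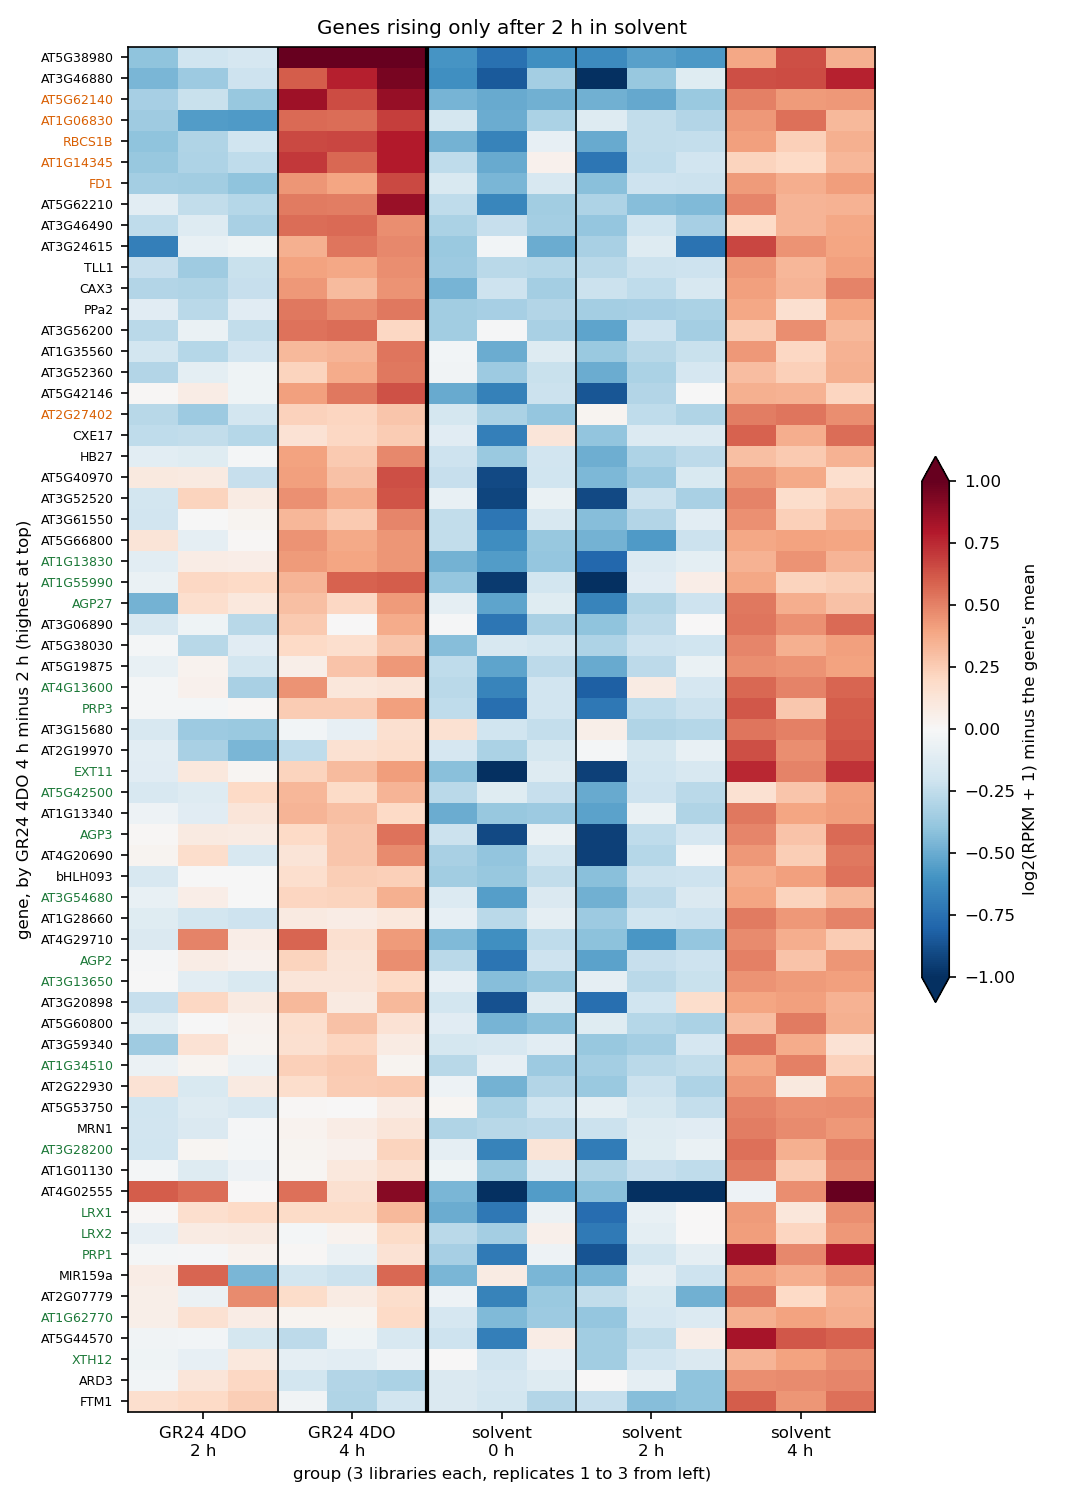
Each row is 1 of the 65 genes and each column 1 library, 3 per group; colour is log2(RPKM + 1) minus the gene's mean over 15 libraries, from blue (lower) to red (higher). Genes are ordered by the GR24 4DO difference between 4 h and 2 h, highest at the top; green names are cell wall genes and orange names chloroplast and redox genes. Orange names gather at the top and are red in the GR24 4DO 4 h columns, while rows at the bottom, such as XTH12, ARD3 and FTM1, are reddest in solvent at 4 h and bluish in the GR24 4DO 4 h columns.

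With GR24 4DO, many but not all of these genes were higher at 4 h than at 2 h. In libraries that the choice had not used, 28 of the 63 tested members rose and 2, FTM1 and ARD3, fell (limma, Benjamini-Hochberg adjusted p under 0.05 over 19155 genes). Among all genes tested, 8.01% rose and 10.8% fell in that comparison. The remaining 33 members were not called. All 3 values at 4 h were above all values at 2 h for 47 of the 63 members, beside 17.6% of genes tested, and all below for 2, beside 23.2%. The median difference was 0.32 over the members and -0.04 over the genes tested.

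Differences with GR24 4DO were mostly smaller than those in solvent. For 53 of 65 genes the GR24 4DO difference between 4 h and 2 h was below the solvent difference, and 15 genes reached 0.6. Because the members were chosen for a large solvent difference, a smaller one elsewhere is favoured by the choice itself, and no test was made of this. Of the 28 genes that rose, 22 were not called against solvent at 4 h, 3 were higher than solvent and 3 lower.

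**Figure D2:**
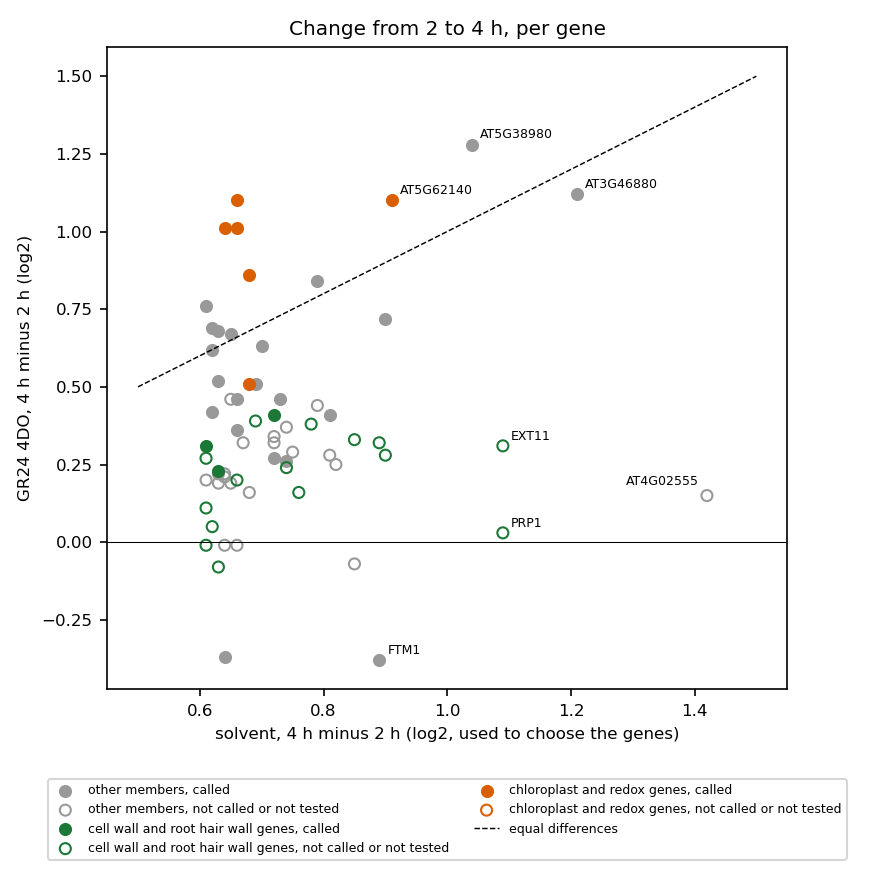
Each point is 1 gene: the vertical axis gives the log2 difference between 4 h and 2 h with GR24 4DO, the horizontal axis the same difference in solvent, which chose the genes. Filled points passed the limma test with GR24 4DO. The 6 orange points, chloroplast and redox genes, are all filled and lie between 0.51 and 1.10, whereas the 18 green points, cell wall genes, lie between -0.08 and 0.41.

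The chloroplast and redox genes, high in solvent at 4 h by choice, rose with GR24 4DO too. All 6 were called higher with GR24 4DO at 4 h than at 2 h, beside 8.01% of genes tested, with a median difference of 1.01 (0.51 to 1.10). In all 6, every GR24 4DO value at 4 h was above every value at 2 h, beside 17.6% of genes tested. Since the group was formed after values were seen, its count is a description. Members of related annotation that it leaves out, the dioxygenase gene ARD3 and the desaturase gene FTM1, fell in the same comparison. The solvent differences of the 6 chloroplast and redox genes had a median of 0.67 (0.64 to 0.91).

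FD1 encodes a ferredoxin, an iron-sulfur protein that carries electrons from photosystem I. It had 525, 509 and 613 RPKM at 4 h and 305, 304 and 293 RPKM at 2 h with GR24 4DO. In solvent it had 349, 282 and 347 RPKM at 0 h, 289.6, 335 and 334 RPKM at 2 h, and 520.0, 499 and 517 RPKM at 4 h. Both treatments thus had all their 4 h values above all earlier ones. The GR24 4DO difference was 0.86 (SE 0.09, limma adjusted p = 4.32e-06), and GR24 4DO and solvent overlapped at 2 h and at 4 h. FD1 overlaps another gene, AT1G10950, on the same strand of the reference, so some of its reads are uncertain.

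RBCS1B encodes a small subunit of Rubisco, the enzyme that fixes carbon dioxide. It had 1316, 1326 and 1443 RPKM at 4 h and 629, 674 and 725 RPKM at 2 h with GR24 4DO. Solvent libraries had 599, 522 and 785 RPKM at 0 h, 586, 699.8 and 707 RPKM at 2 h, and 1103, 982 and 1062 RPKM at 4 h. Every GR24 4DO value at 4 h was above every solvent value at that time, but the difference of 0.38 missed the threshold (limma adjusted p = 0.056). With GR24 4DO it rose between 2 h and 4 h by 1.01 (SE 0.12, limma adjusted p = 1.81e-05). The other Rubisco small subunit genes, RBCS1A, RBCS2B and RBCS3B, had differences of 0.01, 0.25 and -0.20 in that comparison and were not called. These copies are nearly identical, so the split of reads among them is uncertain. Of 20 photosynthesis genes in a list, RBCS1B alone rose with GR24 4DO between 2 h and 4 h and 16 fell, with a list median of -0.79.

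AT5G62140 is annotated as an ATP-binding subunit of the Clp protease, which degrades proteins in chloroplasts. With GR24 4DO it had 20.3, 17.6 and 20.6 RPKM at 4 h and 8.39, 9.11 and 8.09 RPKM at 2 h. With solvent it had 7.54, 7.34 and 7.49 RPKM at 0 h, 7.47, 7.28 and 8.14 RPKM at 2 h, and 14.9 to 15.8 RPKM at 4 h. The treatments overlapped at 2 h and were apart at 4 h, with GR24 4DO higher. It rose by 1.10 between 2 h and 4 h with GR24 4DO (SE 0.07, limma adjusted p = 2.57e-08).

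Among the other redox genes, AT1G14345, an NAD(P)-linked oxidoreductase, rose by 1.01 (SE 0.13, limma adjusted p = 5.14e-05) and AT1G06830, a glutaredoxin, by 1.10 (SE 0.09, limma adjusted p = 3.11e-07). Glutaredoxins reduce disulfides with glutathione. AT1G06830 had 48.8, 48.3 and 53.2 RPKM with GR24 4DO at 4 h, against 44.2, 48.2 and 41.0 RPKM in solvent. At 2 h it had 25.2, 21.8 and 21.7 RPKM with GR24 4DO and 29.7, 27.3 and 26.4 RPKM in solvent. GR24 4DO was thus below solvent in every library at 2 h and above it in every library at 4 h, with differences of -0.27 and 0.17 that were not called. AT2G27402, annotated as plastid transcriptionally active, rose least in the group, by 0.51 (SE 0.08, limma adjusted p = 0.00029). At 4 h it had 62.7, 62.1 and 64.8 RPKM with GR24 4DO and 76.8, 77.9 and 74.3 RPKM in solvent, and was lower with GR24 4DO by this test (-0.27, limma adjusted p = 0.047). The choice of members favours this sign.

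Most of the cell wall genes did not pass the test between 2 h and 4 h with GR24 4DO. The main fit takes the spread of each gene from all 15 libraries, including early solvent libraries that were uneven for wall genes. In this comparison 3 of 18 rose (AT1G13830, AT3G13650 and AT5G42500) and 0 fell (limma), beside 8.01% and 10.8% of genes tested, and the median difference was 0.25 (-0.08 to 0.41). The difference was above 0 for 16 of the 18. All GR24 4DO values at 4 h were above all at 2 h for 12 of them and below for 0, beside 17.6% and 23.2% of genes tested. At an unadjusted p under 0.05, 7 were higher and 0 lower, beside 13.4% and 19.3% of genes tested. Limma-voom on recovered reads called 2 of the 18 higher and 0 lower, beside 7.92% and 11.6% of genes tested, and the replicate block 4 and 0, beside 10.3% and 15.7%. The calls of these 3 wall genes in the main fit were each lost under at least 1 alternative setting. A fit of only the 2 groups compared kept them and also called PRP3, EXT11, AT3G54680, AT1G55990 and AGP3 higher (limma adjusted p 0.0025 to 0.0317). This fit called 41 of all members higher, against 28 in the main fit, and the share of genes tested that it called was not counted. The solvent differences of the 18 wall genes had a median of 0.71 (0.61 to 1.09).

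PRP3, a proline-rich wall protein of root hairs, had 165, 165 and 184 RPKM at 4 h and 136, 136 and 139 RPKM at 2 h with GR24 4DO. Solvent libraries held 116, 81.7 and 121 RPKM at 0 h, 83.6, 116 and 119 RPKM at 2 h, and 213, 167 and 210.5 RPKM at 4 h. GR24 4DO was above solvent in every library at 2 h, and the treatments overlapped at 4 h. Neither the difference of 0.38 at 2 h nor that of -0.19 at 4 h was called (limma adjusted p = 0.188 and 0.452).

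PRP1, its close relative in roots, had 65.8, 62.7 and 72.3 RPKM at 4 h and 64.4, 64.8 and 66.9 RPKM at 2 h with GR24 4DO. In solvent the values were 51.8, 39.6 and 63.0 RPKM at 0 h, 35.5, 57.4 and 61.4 RPKM at 2 h, and 118, 91.3 and 115 RPKM at 4 h. The GR24 4DO libraries of both times overlapped, and at 4 h all were below all solvent libraries. The difference from solvent at 4 h was -0.68 (SE 0.17, limma adjusted p = 0.022), a sign that the choice of members favours. This call was lost under 6 alternative settings, with limma adjusted p up to 0.242.

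EXT11, which carries an extensin symbol but is annotated as a pseudogene of uncharacterized product, had 62.9, 67.1 and 72.2 RPKM with GR24 4DO at 4 h and 91.2, 76.2 and 89.5 RPKM in solvent at 4 h. At 2 h it had 49.7, 58.1 and 54.6 RPKM with GR24 4DO and 27.7, 46.6 and 48.0 RPKM in solvent. The order of the treatments was opposite at the 2 times and no library overlapped, but neither difference was called (0.44 at 2 h, limma adjusted p = 0.268; -0.34 at 4 h, limma adjusted p = 0.331). LRX1, a leucine-rich repeat extensin needed for root hair walls, had 37.9, 37.9 and 41.6 RPKM with GR24 4DO at 4 h and 44.6, 35.8 and 45.9 RPKM in solvent, which overlapped. Its difference between 4 h and 2 h with GR24 4DO was 0.11 (limma adjusted p = 0.705).

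XTH12 encodes a xyloglucan endotransglucosylase/hydrolase, an enzyme that cuts and rejoins xyloglucan chains. It had 17.2, 17.0 and 17.7 RPKM with GR24 4DO at 4 h and 23.5, 24.5 and 25.7 RPKM in solvent at 4 h. At 2 h it had 17.8, 17.3 and 19.8 RPKM with GR24 4DO and 14.2, 15.9 and 16.5 RPKM in solvent. GR24 4DO was higher than solvent in every library at 2 h and lower in every library at 4 h. The 4 h difference was -0.48 (SE 0.07, limma adjusted p = 0.000399), and this call was kept under every alternative tried. The choice of members favours the sign at each time, and every alternative used the same members.

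**Figure D3:**
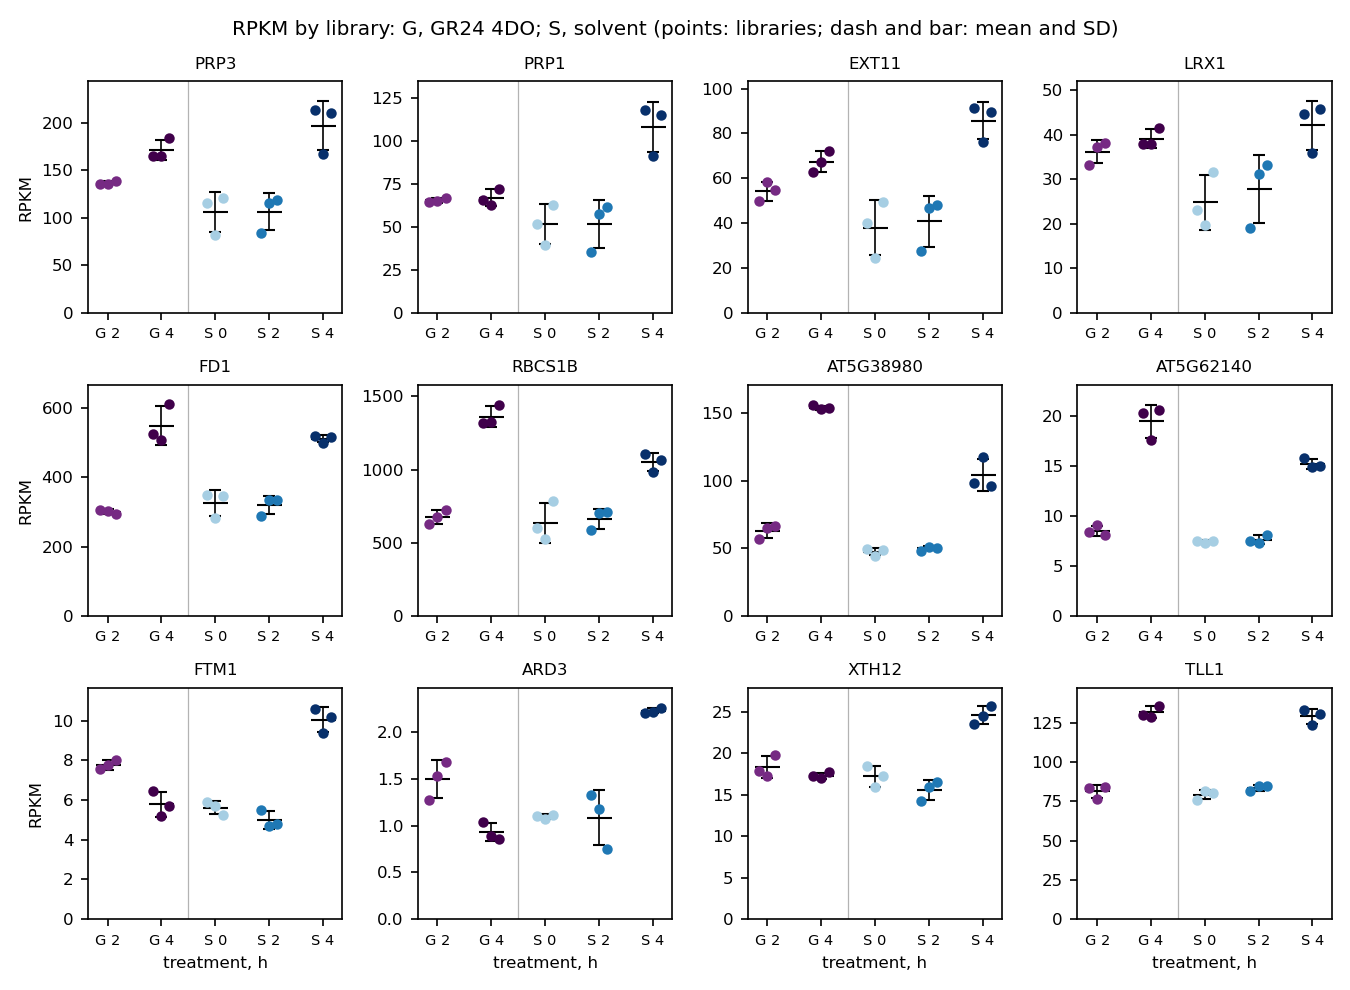
RPKM of 12 genes in each library: G is GR24 4DO at 2 h and 4 h, S is solvent at 0 h, 2 h and 4 h; points are libraries, the dash and bar their mean and SD (n = 3). FD1, RBCS1B, AT5G62140 and TLL1 are higher at 4 h in both treatments, AT5G38980 is highest with GR24 4DO at 4 h, and PRP1, XTH12, FTM1 and ARD3 are highest in solvent at 4 h.

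Wall gene levels were uneven among the early solvent libraries. In solvent 2 h replicate 1, 17 of the 18 wall genes were lower than in both other replicates, and in solvent 0 h replicate 2 this held for 16. Over all genes tested, 46.8% were lowest in solvent 2 h replicate 1 of their group and 24.2% in solvent 0 h replicate 2. Without solvent 2 h replicate 1, the median solvent difference between 4 h and 2 h of the wall genes was 0.58 in place of 0.71, and 3 of the 18 still met the rule. Of the 6 chloroplast and redox genes, 4 still met it, and of all 65 genes, 27. The rule then chose 35 genes in total. Without both of these low libraries, 7 of the 18 wall genes and 32 of the 65 genes met it.

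A list of root cell markers held PRP3 and no other member. Of its 19 tested genes 0 rose and 1 fell with GR24 4DO between 2 h and 4 h (limma), with a median of -0.02. At 4 h 1 was lower than in solvent, the root hair regulator RSL4 (-0.34). The root hair expansin genes EXPA7 and EXPA18 had solvent differences between 4 h and 2 h of 0.32 and 0.52, under the limit. Of 20 root marker genes other than PRP3, none was at 0 in any library. Their summed level was 186 to 198 RPKM with GR24 4DO at 4 h and 181 to 186 RPKM at 2 h. In solvent it was 175 to 200.5 RPKM at 0 h, 148 to 181 RPKM at 2 h and 186 to 206 RPKM at 4 h, with the lowest value in solvent 2 h replicate 1. The summed level of the 18 wall genes was 845 to 961 RPKM with GR24 4DO at 4 h and 724 to 769 RPKM at 2 h, and in solvent 460.4 to 685 RPKM at 0 h, 470.2 to 674 RPKM at 2 h and 950.3 to 1108 RPKM at 4 h. Whether the share of root material plays a part in the wall gene values was not tested.

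**Figure D4:**
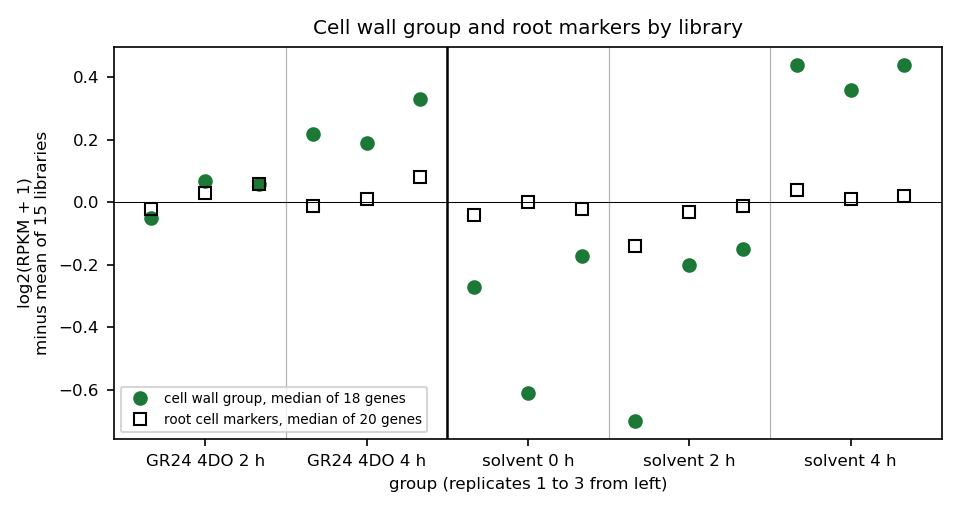
Median log2(RPKM + 1) relative to the mean of 15 libraries, for the 18 cell wall genes (green) and 20 root cell markers (open squares), by library. The wall genes are lowest in solvent 0 h replicate 2 (-0.61) and solvent 2 h replicate 1 (-0.70), where the root markers lie at 0.00 and -0.14.

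Among the other members, AT5G38980 had the largest difference with GR24 4DO. This gene of uncharacterized product had 156, 153 and 154 RPKM at 4 h and 56.6, 65.3 and 66.9 RPKM at 2 h with GR24 4DO. In solvent it had 49.5, 44.4 and 48.8 RPKM at 0 h, 48.4, 51.3 and 50.2 RPKM at 2 h, and 98.4, 118 and 96.4 RPKM at 4 h. GR24 4DO was above solvent in every library at both times. It rose by 1.28 between 2 h and 4 h with GR24 4DO (SE 0.08, limma adjusted p = 1.13e-08). At 4 h it was 0.57 higher than in solvent (limma adjusted p = 0.000163), a call kept under every alternative tried.

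Members outside both groups also rose with GR24 4DO. TLL1, a triacylglycerol lipase-like gene, had 130.4, 129 and 136 RPKM at 4 h and 83.7, 76.8 and 84.3 RPKM at 2 h with GR24 4DO (difference 0.69, limma adjusted p = 3.11e-07), and its solvent difference was 0.62. CAX3, a vacuolar cation exchanger, rose by 0.68 with GR24 4DO (0.63 in solvent), and PPa2, a soluble pyrophosphatase, by 0.67 (0.65 in solvent). AT3G46490, a 2-oxoglutarate-dependent oxygenase, rose by 0.76, the amino acid transporter gene AT3G56200 by 0.63 and the TCP factor AT1G35560 by 0.62. AT3G46880, of uncharacterized product, rose by 1.12 with GR24 4DO (1.21 in solvent). The limma adjusted p was under the threshold for each of these genes. Among the other transporters and lipases, AT5G38030, a MATE efflux gene, rose by 0.36 (0.66 in solvent) and the GDSL lipase gene AT1G28660 by 0.26 (0.74 in solvent). The solute carrier gene AT3G59340 had a difference of 0.21 that was not called (0.64 in solvent). PPa2 overlaps a gene on the other strand, and the strand of counting is not given in the sources used here.

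The genes that fell with GR24 4DO between 2 h and 4 h were FTM1 and ARD3. FTM1, of the stearoyl-ACP desaturase family, had 6.47, 5.20 and 5.70 RPKM at 4 h and 7.56, 7.75 and 8.04 RPKM at 2 h with GR24 4DO. In solvent it had 5.91, 5.72 and 5.24 RPKM at 0 h, 5.52, 4.67 and 4.78 RPKM at 2 h, and 10.6, 9.36 and 10.2 RPKM at 4 h. The 2 treatments were apart at both times, in opposite order. FTM1 fell by 0.38 between 2 h and 4 h with GR24 4DO (limma adjusted p = 0.00549). It was 0.56 higher with GR24 4DO than with solvent at 2 h (limma adjusted p = 0.00267) and differed by -0.71 at 4 h (limma adjusted p = 4.21e-05). The choice of members favours both of these signs against solvent.

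ARD3, an acireductone dioxygenase of the methionine salvage cycle, had 1.04, 0.895 and 0.863 RPKM at 4 h and 1.28, 1.53 and 1.68 RPKM at 2 h with GR24 4DO. In solvent it had 1.10, 1.07 and 1.12 RPKM at 0 h, 1.33, 1.18 and 0.753 RPKM at 2 h, and 2.21, 2.22 and 2.26 RPKM at 4 h. At 4 h every GR24 4DO library was below every solvent library, and the difference was -0.74 (SE 0.10, limma adjusted p = 0.000166). The choice of members favours this sign. The fall of ARD3 with GR24 4DO, by 0.37, passed the threshold (limma adjusted p = 0.0189) but was lost under 5 alternative settings. ARD3 was too low to be tested with the filter at 5 RPKM.

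Against solvent at 2 h, FTM1 was the 1 member called. Of the 63 tested members 1 was higher and 0 lower (limma), beside 0.887% and 0.412% of genes tested, and at an unadjusted p under 0.05 these counts were 30 and 1, beside 13.1% and 5.18% of genes tested. Limma-voom on recovered reads also gave 1 higher and 0 lower. With a block for the replicate number, 9 members were higher, beside 4.06% of genes tested: FTM1, AT5G38980, AT4G02555, AT4G29710, AT5G66800, HB27, bHLH093, AT1G62770 and AT1G34510. The difference was above 0 for 57 of 65 genes, with a median of 0.23, and the genes tested had a median of 0.06. All GR24 4DO values were above all solvent values for 25 tested members, beside 19.3% of genes tested, and below for 1, beside 6.89%. These comparisons share the solvent 2 h libraries with the choice of members, which favours low solvent values at 2 h.

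The wall genes had positive differences at 2 h throughout, which the choice of members favours through low solvent values at that time. All 18 were above 0, with a median of 0.33 (0.11 to 0.52). In 11 every GR24 4DO library was above every solvent library, beside 19.3% of genes tested. Limma on RPKM called 0 of the 18, and limma-voom on recovered reads called 0 higher. At an unadjusted p under 0.05, 13 were higher and 0 lower, beside the same 13.1% and 5.18% of genes tested. With the replicate block in all libraries AT1G62770 and AT1G34510 were called higher, beside 4.06% of genes tested. With it in the 6 libraries of 2 h alone AGP2 was called in their place, beside 0.992%. Without solvent 2 h replicate 1 the median was 0.18 and 17 of 18 were above 0. The chloroplast and redox genes had a median of -0.03 at 2 h (-0.27 to 0.14).

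Against solvent at 4 h, 3 of the 63 tested members were higher and 13 lower (limma), beside 4.69% and 4.23% of genes tested. The choice of members favours high solvent values at 4 h, and with them lower values for GR24 4DO. All GR24 4DO values were below all solvent values for 25 members, beside 16.0% of genes tested, and above for 9, beside 17.5%. The median difference was -0.10, and 0.02 over the genes tested. The 3 higher genes were AT5G38980, AT5G62140 (0.33, limma adjusted p = 0.00761) and AT1G14345 (0.44, limma adjusted p = 0.0447), the first alone keeping its call under all alternatives. AT1G14345 had 79.1, 72.1 and 83.7 RPKM with GR24 4DO, against 56.3, 55.2 and 60.6 RPKM in solvent, and its call was lost under 9 settings.

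The 13 lower genes came from several families. Besides FTM1, ARD3, XTH12, PRP1 and AT2G27402, they included AT1G28660, a GDSL lipase, with 46.9, 46.6 and 47.6 RPKM with GR24 4DO and 63.5, 60.0 and 62.7 RPKM in solvent (difference -0.39, limma adjusted p = 0.000644). AT5G53750, a protein with CBS domains, had 34.4, 34.3 and 36.0 RPKM with GR24 4DO and 48.7, 47.3 and 47.6 RPKM in solvent (-0.45, limma adjusted p = 0.000734). AT5G44570, of uncharacterized product, had 1.80, 2.25 and 2.00 RPKM with GR24 4DO and 4.93, 4.16 and 4.05 RPKM in solvent. Its difference of -0.83 was the lowest among the members. In each of these 3 genes the treatments did not overlap at 4 h. The calls of 6 of the 13 were kept under every alternative in which the gene was tested: FTM1, ARD3, XTH12, AT1G28660, AT5G53750 and AT5G44570. ARD3 and AT5G44570 stayed under 5 RPKM in every library and were not tested with the filter at 5 RPKM. All alternatives share the choice of members, which favours lower values here. With the 2 most alike replicates of a group averaged, 6 members in all were lower.

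**Figure D5:**
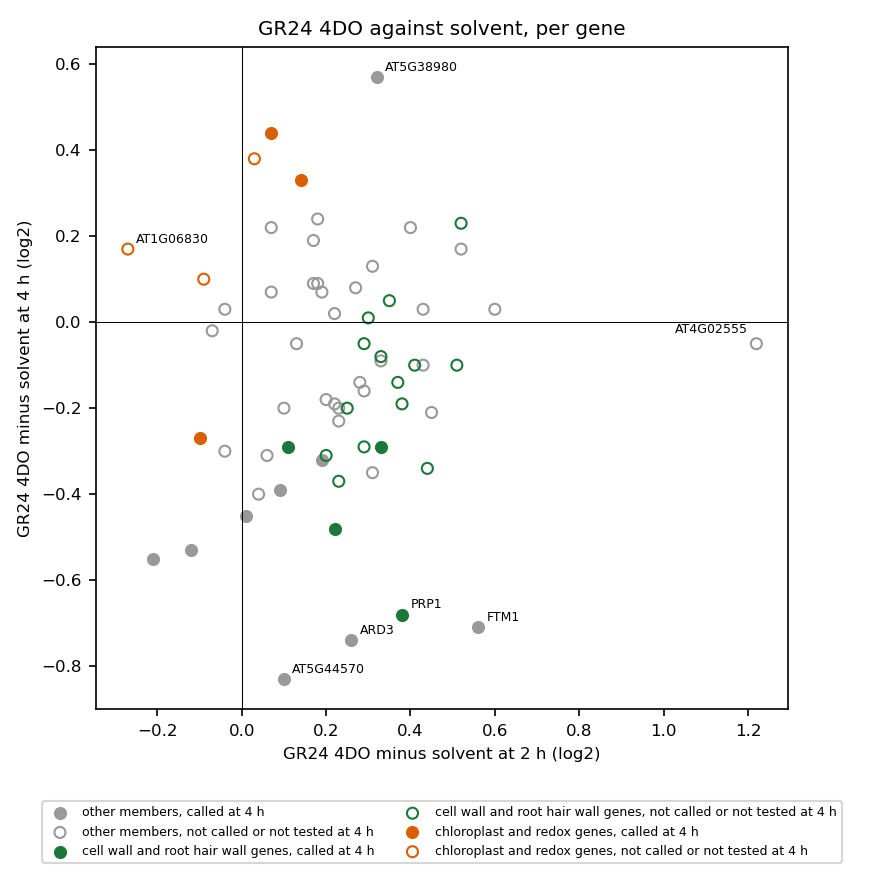
Each point is 1 gene: the log2 difference of GR24 4DO minus solvent at 4 h (vertical) against that at 2 h (horizontal); filled points were called by limma at 4 h. Most green points, cell wall genes, lie to the right of 0 and below it, and 36 of the 65 genes are positive at 2 h and negative at 4 h.

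The difference from solvent had opposite signs at 2 h and 4 h in many members. A positive difference at 2 h with a negative one at 4 h occurred in 36 of 65 genes, and 21 were positive at both times. Since the choice of members pushes both signs in this direction, the counts are given as a description.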

How the data were processed

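The authors deposited 1 table of RPKM per gene for 15 libraries. Per the submitters' processing notes, the authors used STAR, featureCounts, DESeq and the TAIR10 genome; for tool versions, counting strand and multiply mapped reads, nothing is given in the sources used here. The 1 entry with no gene name was left out. Names and promoters came from RefSeq (TAIR10.1), which matched all 65 members.

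All 347846 values above 0 were whole reads within 0.02 reads once multiplied by a recovered gene length and library total; of 1000 genes tried with altered totals, 33 passed. A floor of 3 reads in a gene of 1 kb corresponds to 0.0801 to 0.123 RPKM and covers counting error only.

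The 19155 genes that reached 1 RPKM in 3 libraries or more entered the test. Limma 3.58.1 (R 4.3.3) was fitted to log2(RPKM + 1) of all 15 libraries by group, with a trend, and checked on simulated data. A gene was called at a Benjamini-Hochberg adjusted p under 0.05. Differences on this scale understate changes of low genes. The plan's count test was not used, as the table held RPKM; recovered reads entered limma-voom as an alternative. At 2 h, deviations of same-numbered libraries correlated at 0.179, 0.133 and 0.101, so the block by number is given there; at 4 h the values were -0.183, 0.491 and 0.407, and between the GR24 4DO times -0.143, 0.434 and 0.0903. The members, 23 gene lists and 25 families were chosen with earlier results of these data known. Named members were those with the largest solvent differences, highest levels, extreme GR24 4DO differences, calls against solvent, places near the limit, or a list or family. Members outside these, such as LRX1, TLL1, PPa2 and those named to account for a group or a count, were chosen after their values were seen. Of the lists, those of photosynthesis and of root cell markers held 1 member each, and the others held 0. Alternatives were other pseudocounts, filters, scalings, rule limits, the groups fitted, the replicate block and left-out libraries.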

Additional observations from a re-analysis of the deposited data

Results flagged for a closer look

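In 10 members every GR24 4DO library was on one side of every solvent library at 2 h and on the other side at 4 h: 9 were above solvent at 2 h and below it at 4 h, beside 0.825% of genes tested, and 1 the reverse, beside 0.788%. Whether the 2 differences differ was not tested, and the choice of members favours a positive difference at 2 h and a negative one at 4 h. The change of the log2 difference from solvent, 4 h minus 2 h, was -1.26 for FTM1, -1.06 for PRP1, -0.78 for EXT11 and -0.70 for XTH12. It was -0.65 for AT2G07779, -0.62 for AT1G62770, -0.52 for the kinase-like gene AT1G01130, -0.45 for bHLH093 and -0.41 for AT5G60800, a heavy metal transport family gene. The glutaredoxin gene AT1G06830 went the other way, at 0.44.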

How the results depend on the processing

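The rule chose 123 genes on log2(RPKM + 0.1), 141 and 15 with a rise of at least 0.5 and 0.8, 37 with a flat interval of 0.1 and 99 with the most alike replicates averaged, of which 52, 65, 15, 37 and 47 were among the 65; with each library left out it chose 35 to 111. Members higher with GR24 4DO at 4 h than at 2 h numbered 28 in the main fit. Under the alternatives the count ran from 21, as with the most alike replicates averaged, to 41 with only the compared groups. Of the 28, 19 kept their call throughout. Members lower in that comparison numbered 1 with quantile normalization and 1 to 2 with libraries left out. With a filter at 5 RPKM the number was 1, as ARD3 stayed below that filter and was not tested. At 2 h, members above solvent numbered 3 on log2(RPKM + 0.1), 2 with only the compared groups and 1 to 3 with libraries left out. For these settings, and for those named above for 4 h against 2 h, the share of genes tested was not counted. With the replicate block there were 9, beside 4.06% of genes tested. A replicate block fitted to only the 6 libraries of that time gave 4, beside 0.992%. That alternative was added after the data were seen, as was median-of-ratios scaling. At 4 h the replicate block gave 6 higher members, beside 8.15% of genes tested, and averaging the most alike replicates gave 1 higher and 6 lower, the count of lower members running from 8 to 12 with libraries left out. The 8 were reached without GR24 4DO 4 h replicate 1 or 2 or solvent 4 h replicate 1 or 3. With averaged replicates or left-out libraries the share of genes tested was not counted. Apart from genes that a filter left untested, the cause of these shifts was not tested. Members under about 1 RPKM rest on few reads, and AT4G02555 was called higher with GR24 4DO at 2 h under 4 of the alternatives (adjusted p 0.00953 to 0.23 over all of them).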
